A study of Homo sapiens with 8 samples.

Results

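The genes described here are 42 splicing regulators: 10 SR proteins, the related activators TRA2A and TRA2B, the 4 CLK kinases, the SR protein kinases SRPK1 and SRPK2, 13 heterogeneous nuclear ribonucleoproteins (hnRNPs, counting PTBP1 and PTBP2), 3 RNA-binding motif proteins and 8 core spliceosome factors. They were chosen by gene symbol from a table of 60332 genes, and all 42 were found. Every one reached 1 FPKM in at least 2 libraries, the limit set for testing, as did 15372 genes in all. FPKM counts sequenced fragments per kilobase of transcript relative to the size of the library, so it can be set side by side between genes of unequal length.

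Pre-mRNA splicing is set by sequence elements that pull the spliceosome toward or away from a splice site. SR proteins bind exonic enhancers and mostly favor exon inclusion, whereas hnRNPs often bind silencers and counter them. SRPK kinases phosphorylate the arginine-serine tails of SR proteins in the cytoplasm and allow their import into the nucleus. CLK kinases phosphorylate the same tails inside the nucleus and release SR proteins from nuclear speckles. U1 and U2 components with SF1 and U2AF recognize the splice sites and the branch point. Many of these genes carry exons that lead to decay of their own mRNA, and the FPKM of a gene sums over such isoforms. The values below are therefore levels of RNA per gene, and neither isoforms nor splicing were measured here.

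The RNA came from SK-N-MC, an established Ewing sarcoma cell line, and was sequenced in 8 libraries that form 4 groups of 2. All cells received dCas9-KRAB, a Cas9 that cannot cut DNA and is joined to a repressor domain, delivered by lentivirus at a multiplicity of infection of 10 and selected with puromycin at 1 µg/ml, and they were used as pools rather than clones. Control cells had the empty vector, whereas eKD1 and eKD2 cells each had a different single guide RNA that places dCas9-KRAB beside the GGAA repeat enhancer upstream of LOXHD1. The paper calls the control cells parental, so the statement that they carried the vector rests on the deposited protocol. The control libraries came from normoxia or from hypoxia (1% oxygen for 16 h), and the eKD1 and eKD2 libraries were all from hypoxia. eKD cells in normoxia were not analysed here, so the effect of a guide outside hypoxia was not measured.

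The targeted gene LOXHD1 was lowest in the cells with a guide. Control normoxia stood at 162 ± 9.0 FPKM (SD, n = 2) and control hypoxia at 92.1 ± 1.4, while eKD1 stood at 16.2 ± 1.6 and eKD2 at 11.7 ± 0.094. LOXHD1 fell in eKD1 (log2 change -2.44, SE 0.096, adjusted p = 0.0371, limma) and in eKD2 (log2 change -2.87, SE 0.066, adjusted p = 0.00617) against control hypoxia. In control cells it also fell from normoxia to hypoxia (log2 change -0.81, SE 0.063, adjusted p = 0.0082, limma). All 8 Ewing sarcoma marker genes were expressed, with sums of 1172 to 1472 FPKM per library. All 5 fibroblast markers also reached 1 FPKM in at least 1 library, with sums of 279 to 343 per library. So did all 4 epithelial markers, with sums of 7.72 to 15.1. The endothelial markers VWF and CDH5 stayed under 1 FPKM in every library and the T cell marker CD3E was listed at 0. The 4 leukocyte markers summed to 23.6 and 25.0 FPKM in control normoxia, 5.51 and 5.78 in control hypoxia, 11.7 in both eKD1 libraries and 15.1 and 15.2 in eKD2. Nearly all of this was PTPRC, and CD14 stayed under 1 FPKM. Summed FPKM ran from 865107 to 1041457 per library and was lowest in the control normoxia libraries. The read number per library is not given, and relative depth estimated from the FPKM steps ran from 55.7% to 100% of the first control hypoxia library. It was 76.0% and 55.7% in control normoxia, 100% and 96.1% in control hypoxia and 61.2% to 82.7% in the eKD libraries. Depth thus differed between the groups compared, and its part in the changes was not tested. With 2 libraries a group, p-values rest on the spread of duplicates. In a bulk library, fewer cells and less RNA per cell cannot be told apart.

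The promoters of the 4 members with the largest falls in hypoxia (leaving out U2AF1, whose locus is split between 2 rows) and of CLK3, the member with the largest rise, are shown first because they are the sequences upstream of the changes described below. Each is the 250 bases before a transcript start in RefSeq (GRCh38.p14, a later build than the GRCh37 of the deposited values), on the gene's own strand. Capitals mark ACGTG, a form of the core bound by hypoxia-inducible factor, or its reverse complement CACGT, and both also occur inside the E-box CACGTG. The core can also read GCGTG, which was neither marked nor counted.
SRSF3 (chr6:36594112-36594361, plus strand): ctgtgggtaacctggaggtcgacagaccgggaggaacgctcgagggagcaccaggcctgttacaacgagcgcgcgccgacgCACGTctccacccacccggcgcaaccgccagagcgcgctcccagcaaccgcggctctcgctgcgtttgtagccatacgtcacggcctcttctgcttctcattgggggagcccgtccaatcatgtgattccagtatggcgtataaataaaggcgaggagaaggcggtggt
HNRNPM (chr19:8444725-8444974, plus strand): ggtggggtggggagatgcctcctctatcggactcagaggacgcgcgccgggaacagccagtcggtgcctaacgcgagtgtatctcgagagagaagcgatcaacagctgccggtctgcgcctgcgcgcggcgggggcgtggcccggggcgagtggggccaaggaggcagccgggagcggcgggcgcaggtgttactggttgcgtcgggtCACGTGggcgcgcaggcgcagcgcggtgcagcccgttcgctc
SF1 (chr11:64778543-64778792, minus strand): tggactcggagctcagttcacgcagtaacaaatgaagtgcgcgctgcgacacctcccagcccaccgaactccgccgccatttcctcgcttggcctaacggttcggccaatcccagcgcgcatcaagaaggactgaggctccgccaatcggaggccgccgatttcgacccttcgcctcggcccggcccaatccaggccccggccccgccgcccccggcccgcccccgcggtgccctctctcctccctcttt
SRSF7 (chr2:38751362-38751611, minus strand): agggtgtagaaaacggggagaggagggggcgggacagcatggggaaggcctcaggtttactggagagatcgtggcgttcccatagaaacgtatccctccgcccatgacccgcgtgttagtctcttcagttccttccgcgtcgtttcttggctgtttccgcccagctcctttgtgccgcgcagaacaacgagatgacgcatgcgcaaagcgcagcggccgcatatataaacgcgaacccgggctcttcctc
CLK3 start 1 (chr15:74608122-74608371, plus strand): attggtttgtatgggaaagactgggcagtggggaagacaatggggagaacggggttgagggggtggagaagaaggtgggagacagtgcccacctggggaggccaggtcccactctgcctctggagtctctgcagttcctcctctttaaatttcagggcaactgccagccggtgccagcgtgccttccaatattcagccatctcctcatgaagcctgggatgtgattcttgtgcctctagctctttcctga
CLK3 start 2 (chr15:74615586-74615835, plus strand): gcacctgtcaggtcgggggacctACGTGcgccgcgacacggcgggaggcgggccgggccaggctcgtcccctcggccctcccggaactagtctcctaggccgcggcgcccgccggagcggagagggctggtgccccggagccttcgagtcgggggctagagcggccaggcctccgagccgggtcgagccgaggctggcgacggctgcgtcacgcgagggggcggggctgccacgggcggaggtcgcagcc
SRSF3 held 1 match and HNRNPM held 2 overlapping matches that form an E-box. SF1, SRSF7 and the upstream CLK3 start had no ACGTG or CACGT, and the downstream CLK3 start had 1 match. RefSeq windows were matched for 38 of the 42 members, with 53 windows in all. Of these, 18 (34%) held ACGTG or CACGT, against 18.5% of all 35116 windows and 22.4% of the windows of tested genes. The share was 12 of 34 windows (35.3%) for members that fell in hypoxia and 5 of 17 (29.4%) for members that passed no test there. Some genes had several windows. Counted by gene, the shares were 12 of 24 (50%) and 4 of 13 (30.8%), against 29.3% of tested genes with a window. The E-box CACGTG went the other way, in 2 of 34 windows (5.88%) and 4 of 17 (23.5%), against 8.29% of the windows of tested genes. A match is a description of the letters and was not tested as a binding site.

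Most of these genes had less RNA in hypoxia than in normoxia in control cells. Of the 42 members, 26 fell and 2 rose between normoxia and hypoxia, where 16% of all tested genes fell and 16.2% rose (32.2% called in all, limma, adjusted p under 0.05). Calls were more frequent among the 8712 tested genes with a mean of at least 10 FPKM, a level every member reached. Of those, 1865 fell and 1774 rose. The median log2 change of the members was -0.33, against 0.01 over all tested genes and -0.01 over the 8712 tested genes with a mean of at least 10 FPKM. The members together made up 2.12% and 2.18% of the summed FPKM in the control normoxia libraries and 1.43% in both control hypoxia libraries. With every library scaled to the same FPKM total, the median of all tested genes moved to -0.19 and that of the members to -0.56. The falls were found among SR proteins (7 of 10), TRA2 (2 of 2), SRPK kinases (1 of 2), hnRNPs (9 of 13), RNA-binding motif proteins (1 of 3) and core factors (6 of 8). Among the 4 CLK kinases none fell and 1 rose, but CLK2 was called lower with every library scaled to the same FPKM total. PTPRC, a leukocyte surface phosphatase, moved with the same comparison, from 22.5 and 23.8 FPKM in control normoxia to 4.87 and 5.39 in control hypoxia (log2 change -1.98, SE 0.11, adjusted p = 0.00684), and its part in these values was not tested. Separation of duplicates was common in this comparison, with both hypoxia libraries below both normoxia libraries in 34.5% of all tested genes and above them in 35.9%, so a lack of overlap stated below describes the values only.

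**Figure D1:**
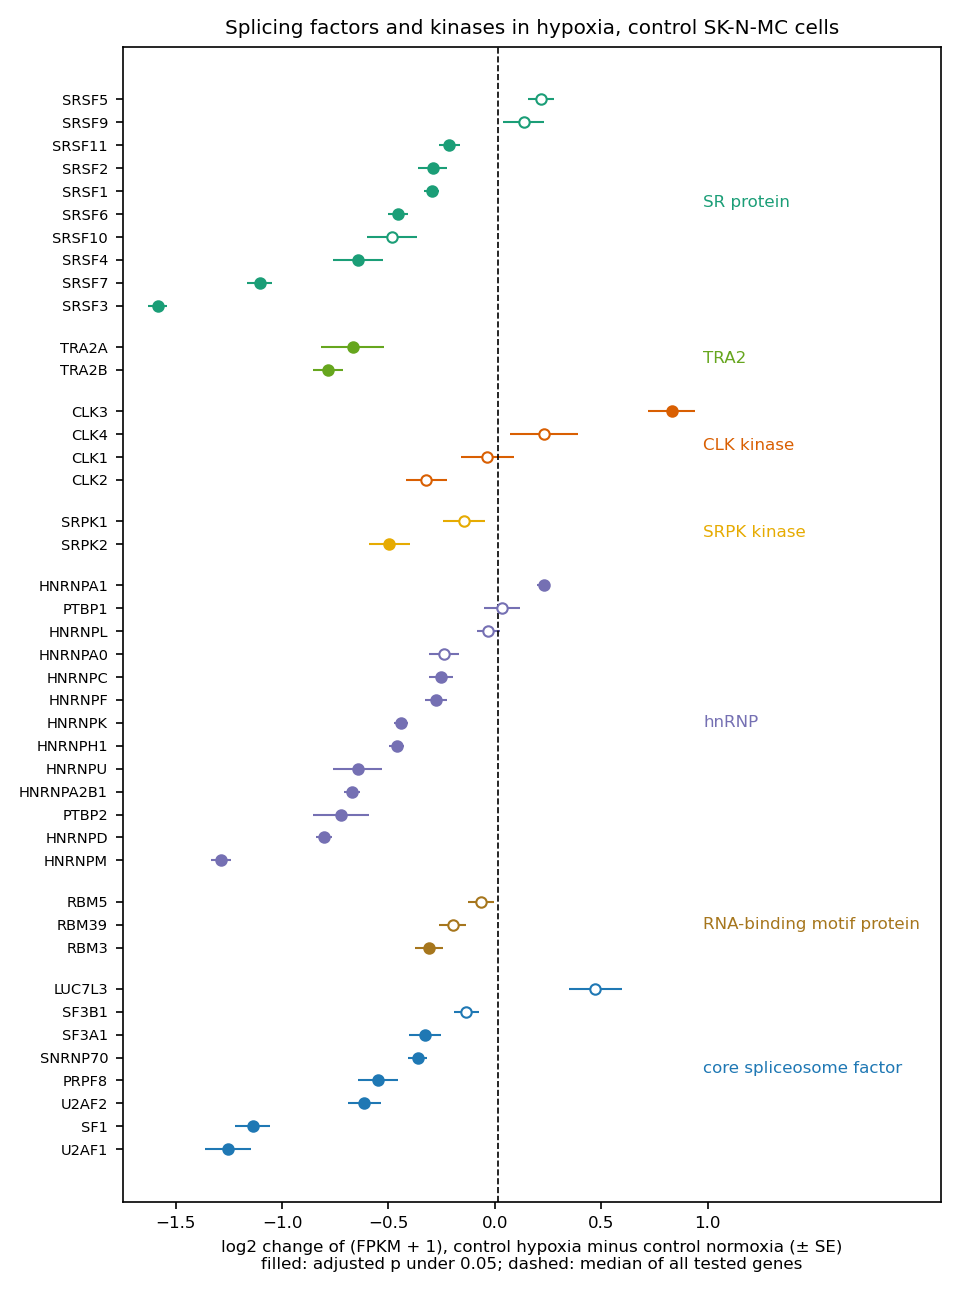
Log2 change of (FPKM + 1) between control hypoxia and control normoxia (x axis, points with SE, n = 2 libraries a group) for the 42 members, grouped by class. Filled points passed the test at an adjusted p under 0.05, and the dashed line is the median of all tested genes, 0.01. Most filled points lie left of the line, from SRSF3 at -1.59, while CLK3 lies farthest right at 0.83.

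Among SR proteins, SRSF3 and SRSF7 changed most. SRSF3 (ENSG00000112081.16, chr6:36562130-36573377, GRCh37), the smallest of the family and an adaptor between splicing and mRNA export, stood at 506 and 494 FPKM in control normoxia, 169 and 163 in control hypoxia, 328 and 285 in eKD1 and 239.7 and 236 in eKD2. SRSF7 (ENSG00000115875.18, chr2:38970741-38978636), its close relative with a zinc knuckle, stood at 312 and 308 FPKM in control normoxia, 149.9 and 138 in control hypoxia, 217 and 199 in eKD1 and 155 and 142 in eKD2. Both were highest in normoxia and lowest or near lowest in control hypoxia, with no overlap between those groups. SRSF3 averaged 499.9 ± 8.0 FPKM (SD, n = 2) in normoxia and 166 ± 4.3 in hypoxia, which is 33.2% of the normoxia level (log2 change -1.59, SE 0.045, adjusted p = 0.00344). SRSF7 went from 310.3 ± 2.7 to 144 ± 8.6 FPKM, or 46.3% (log2 change -1.11, SE 0.060, adjusted p = 0.00665).

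The other SR proteins that fell did so by less. SRSF4, a large SR protein with a long arginine-serine tail, stood at 148 and 121 FPKM in control normoxia, 83.4 and 87.2 in control hypoxia, 86.8 and 99.2 in eKD1 and 103 and 70.4 in eKD2. SRSF6, its close relative, stood at 171 and 169 FPKM in control normoxia, 125 and 122 in control hypoxia, 133 and 124 in eKD1 and 119 and 114 in eKD2. In both genes the normoxia libraries were above every hypoxia library of any genotype. In control cells SRSF4 fell to 63.5% (log2 change -0.64, SE 0.12, adjusted p = 0.0284) and SRSF6 to 72.8% (log2 change -0.46, SE 0.047, adjusted p = 0.0108). SRSF1, the first SR protein to be described and a known oncogene, stood at 660.1 and 647 FPKM in control normoxia, 535 and 529 in control hypoxia, 473 and 442 in eKD1 and 427 and 405 in eKD2. SRSF2, which binds exonic enhancers and marks nuclear speckles, stood at 386 and 407 FPKM in control normoxia, 339.7 and 308 in control hypoxia, 378 and 375 in eKD1 and 198 and 211 in eKD2. SRSF11 stood at 398 and 387 FPKM in control normoxia, 348 and 329 in control hypoxia, 279 and 264 in eKD1 and 277 and 285 in eKD2. All 3 were lower in control hypoxia than in normoxia without overlap, by smaller amounts than SRSF3. SRSF1 fell to 81.4% (log2 change -0.30, SE 0.036, adjusted p = 0.0137), SRSF2 to 81.7% (log2 change -0.29, SE 0.069, adjusted p = 0.0464) and SRSF11 to 86.2% (log2 change -0.21, SE 0.049, adjusted p = 0.0449). Exons of SRSF1 overlap those of an unnamed gene on the same strand over 32.7% of their length, and SRSF2 overlaps MFSD11 on the opposite strand over 27.7%, so part of these reads could belong to either gene. The unnamed gene was listed at 14.4 to 34.3 FPKM and MFSD11 at 13.8 to 22.7.

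SRSF5, SRSF9 and SRSF10 did not pass the test in hypoxia. SRSF5 had group means of 615 FPKM in normoxia and 714 in control hypoxia (log2 change 0.22, SE 0.062, adjusted p = 0.0702). SRSF9 had 307 and 336 (log2 change 0.14, SE 0.096, adjusted p = 0.344). Its exons overlap those of GATC, listed at 21.8 to 34.8 FPKM, on the opposite strand over 43.6% of their length. SRSF10, which becomes a splicing repressor when dephosphorylated, had 85.0 and 60.2 and lay just outside the threshold (log2 change -0.48, SE 0.12, adjusted p = 0.0501). SRSF5 and SRSF9 had estimates above 0, unlike every other SR protein in the set.

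TRA2A and TRA2B, which activate exons through purine-rich enhancers and resemble SR proteins, both fell. TRA2A stood at 136 and 125 FPKM in control normoxia, 92.7 and 71.4 in control hypoxia, 94.0 and 81.1 in eKD1 and 108 and 98.9 in eKD2. TRA2B stood at 453 and 501 FPKM in control normoxia, 284 and 268 in control hypoxia, 269 and 292 in eKD1 and 268 and 281 in eKD2. TRA2B in normoxia was above all 6 hypoxia libraries, which lay close to each other whatever the guide. Control hypoxia held 63.1% of the normoxia level of TRA2A (log2 change -0.67, SE 0.15, adjusted p = 0.0418) and 57.9% of that of TRA2B (log2 change -0.79, SE 0.070, adjusted p = 0.00921).

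Of the kinases, CLK3 rose in hypoxia, SRPK2 fell and the other 4 did not pass the test. CLK3 (ENSG00000179335.18, chr15:74890841-74937755, GRCh37) stood at 54.5 and 63.3 FPKM in control normoxia, 99.5 and 111 in control hypoxia, 96.8 and 94.0 in eKD1 and 64.0 and 80.4 in eKD2. Normoxia was lowest, control hypoxia and eKD1 were highest, and eKD2 lay between. CLK3 rose from 58.9 ± 6.2 FPKM (SD, n = 2) in normoxia to 106 ± 8.5 in control hypoxia, or 179% (log2 change 0.83, SE 0.11, adjusted p = 0.0156). Its exons overlap those of EDC3 on the opposite strand over 3.6% of their length. CLK1 stood at 81.0 and 99.3 FPKM in control normoxia, 91.4 and 83.7 in control hypoxia, 71.9 and 75.0 in eKD1 and 101 and 111 in eKD2. CLK2 stood at 60.6 and 52.3 FPKM in control normoxia, 45.6 and 44.1 in control hypoxia, 39.7 and 47.0 in eKD1 and 33.9 and 36.9 in eKD2. CLK4 stood at 13.8 and 17.9 FPKM in control normoxia, 18.0 and 19.3 in control hypoxia, 13.8 and 12.4 in eKD1 and 20.9 and 18.7 in eKD2. The control groups overlapped for CLK1, whereas for CLK2 both hypoxia libraries were below both normoxia libraries and for CLK4 they were just above. None of these 3 passed the test in hypoxia (CLK1 log2 change -0.04, SE 0.12, adjusted p = 0.847, CLK2 log2 change -0.32, SE 0.098, adjusted p = 0.0789, CLK4 log2 change 0.23, SE 0.16, adjusted p = 0.327). The 95% intervals ran from -0.39 to 0.32 for CLK1, from -0.60 to -0.05 for CLK2 and from -0.22 to 0.68 for CLK4 on the log2 scale. With every library scaled to the same FPKM total, CLK2 was called lower (log2 change -0.56, adjusted p = 0.0242, limma).

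SRPK1, a mostly cytoplasmic SR protein kinase, stood at 69.9 and 71.0 FPKM in control normoxia, 58.7 and 68.9 in control hypoxia, 52.6 and 54.0 in eKD1 and 66.2 and 69.8 in eKD2. SRPK2, its close relative, stood at 29.8 and 33.7 FPKM in control normoxia, 22.0 and 22.4 in control hypoxia, 22.0 and 30.7 in eKD1 and 32.8 and 34.5 in eKD2. SRPK2 was lower in control hypoxia than in normoxia without overlap, while eKD1 libraries differed from each other and eKD2 lay at the normoxia level. SRPK2 fell to 69.9% in hypoxia (log2 change -0.50, SE 0.096, adjusted p = 0.0319), whereas SRPK1 did not pass the test (log2 change -0.15, SE 0.099, adjusted p = 0.326). In FPKM, which compares genes per length, the kinases ranked from 30 to 42 among the 42 members by their mean over the 8 libraries. CLK4 was lowest and HNRNPA1 was highest, and the members ranged from the 54.6th to the 99.4th percentile of tested genes.

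**Figure D2:**
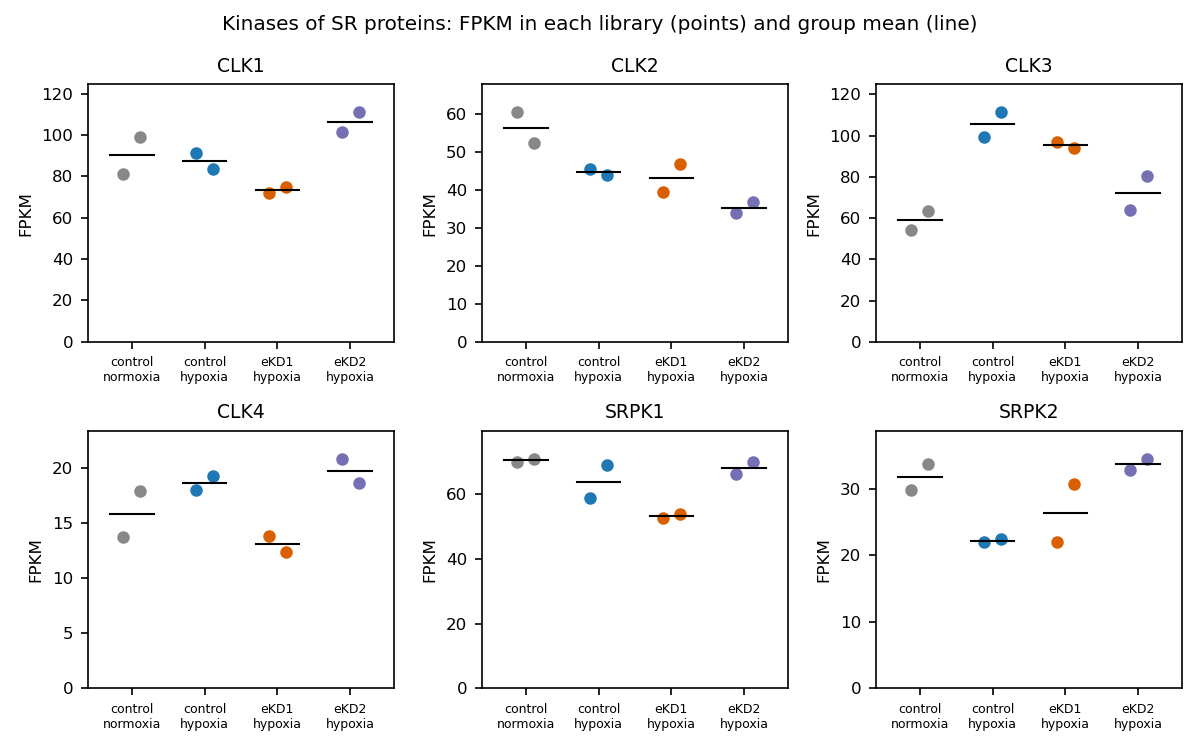
FPKM (y axis, from 0) of the CLK and SRPK kinases in each of the 8 libraries (points) with the group mean (line, n = 2). CLK3 is highest in control hypoxia, at 99.5 and 111 FPKM, and lowest in control normoxia, while CLK1 and CLK4 have their lowest group means in eKD1.

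Of the 13 hnRNPs, 9 fell and 1 rose. HNRNPM (ENSG00000099783.11, chr19:8509651-8553998, GRCh37), which binds GU-rich elements, stood at 929 and 898 FPKM in control normoxia, 383 and 365 in control hypoxia, 619 and 505 in eKD1 and 414 and 434 in eKD2. It was highest in normoxia by a wide margin, and control hypoxia was lowest. Its mean went from 914 ± 22.3 to 374 ± 13.1 FPKM (SD, n = 2), or 40.9% (log2 change -1.29, SE 0.046, adjusted p = 0.00548). HNRNPD, which binds AU-rich elements and acts on mRNA decay, stood at 951 and 979.9 FPKM in control normoxia, 558 and 549 in control hypoxia, 659 and 633 in eKD1 and 641 and 610.3 in eKD2. PTBP2, the form of polypyrimidine tract binding protein typical of neurons, stood at 40.7 and 33.4 FPKM in control normoxia, 21.0 and 23.0 in control hypoxia, 25.0 and 22.5 in eKD1 and 22.2 and 22.2 in eKD2. For both, the normoxia libraries were above all others. HNRNPD fell to 57.3% (log2 change -0.80, SE 0.037, adjusted p = 0.00654) and PTBP2 to 59.3% (log2 change -0.72, SE 0.13, adjusted p = 0.0282).

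HNRNPA1 and HNRNPA2B1 were among the most abundant members. HNRNPA1, which represses exons through silencer elements, stood at 1539 and 1539 FPKM in control normoxia, 1805 and 1804 in control hypoxia, 1609 and 1595 in eKD1 and 1296 and 1357 in eKD2. HNRNPA2B1, its close relative, stood at 1674 and 1635 FPKM in control normoxia, 1058 and 1019 in control hypoxia, 992 and 971 in eKD1 and 900.3 and 794 in eKD2. The pair went in opposite directions in hypoxia, each without overlap. HNRNPA1 rose to 117% (log2 change 0.23, SE 0.029, adjusted p = 0.015), but with every library scaled to the same FPKM total its log2 change was -0.01 and not called. HNRNPA2B1 fell to 62.8% (log2 change -0.67, SE 0.038, adjusted p = 0.00679). Of the 75 HNRNPA1 copies listed in the table, 2 reached 1 FPKM and the copies summed to 8.46 to 10.3 FPKM per library, far below the gene itself.

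HNRNPH1, which binds runs of G, stood at 1824 and 1827 FPKM in control normoxia, 1347 and 1304 in control hypoxia, 1321 and 1132 in eKD1 and 1294 and 1309 in eKD2. HNRNPF, of the same subfamily, stood at 91.3 and 89.4 FPKM in control normoxia, 74.2 and 74.7 in control hypoxia, 87.8 and 84.6 in eKD1 and 83.0 and 75.8 in eKD2. HNRNPK, which binds C-rich sequences, stood at 859 and 873 FPKM in control normoxia, 637 and 639 in control hypoxia, 756 and 746 in eKD1 and 725 and 699 in eKD2. For all 3, both normoxia libraries were above every hypoxia library. They fell to 72.6% for HNRNPH1 (log2 change -0.46, SE 0.034, adjusted p = 0.00809), 82.4% for HNRNPF (log2 change -0.28, SE 0.053, adjusted p = 0.0313) and 73.7% for HNRNPK (log2 change -0.44, SE 0.034, adjusted p = 0.0081). HNRNPC, which binds U tracts, stood at 1233 and 1258 FPKM in control normoxia, 1093 and 1001 in control hypoxia, 923 and 1008 in eKD1 and 1004 and 853 in eKD2. HNRNPU, a scaffold attachment factor of the nuclear matrix, stood at 1004 and 825 FPKM in control normoxia, 560.2 and 604 in control hypoxia, 577 and 595 in eKD1 and 727 and 612 in eKD2. Control hypoxia was below normoxia without overlap in both, and the normoxia duplicates of HNRNPU were far apart. HNRNPC fell to 84% (log2 change -0.25, SE 0.056, adjusted p = 0.0417) and HNRNPU to 63.7% (log2 change -0.64, SE 0.11, adjusted p = 0.0264), with COX20 overlapping 15.6% of HNRNPU exons on the opposite strand. HNRNPA0, HNRNPL and PTBP1 did not pass the test, with log2 changes of -0.24, -0.03 and 0.03. HNRNPL, which binds CA repeats, was the steadiest member, with a coefficient of variation of 3.9% over the 8 libraries.

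**Figure D3:**
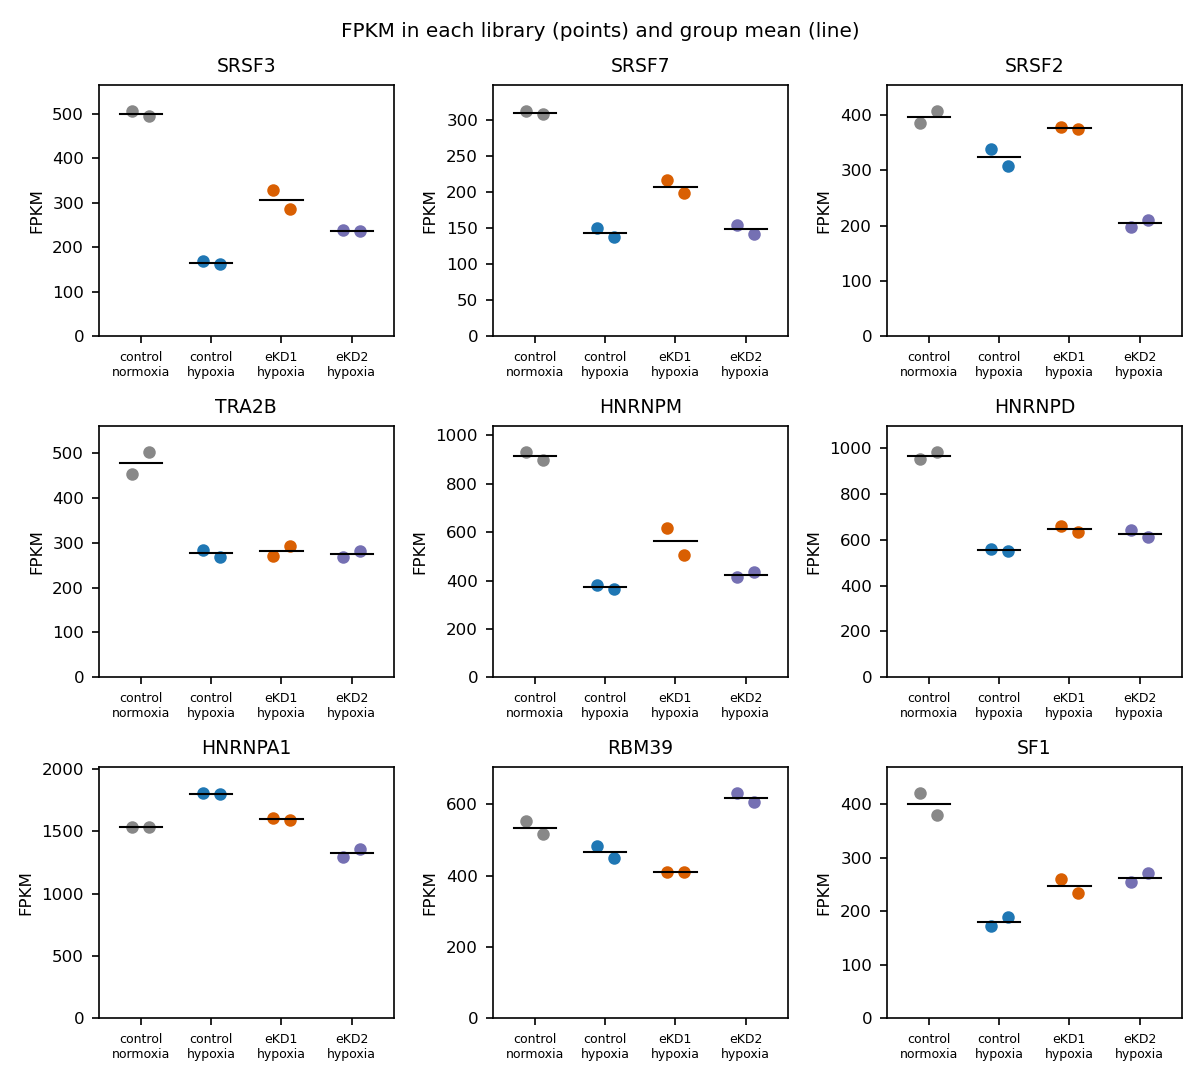
FPKM (y axis, from 0) of 9 members in each of the 8 libraries (points) with the group mean (line, n = 2). SRSF3, HNRNPM and SF1 are highest in control normoxia and lowest in control hypoxia, SRSF7 is low in control hypoxia and eKD2, TRA2B is alike in all hypoxia groups, HNRNPA1 is highest in control hypoxia, SRSF2 is lowest in eKD2 and RBM39 is highest in eKD2.

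Core factors of splice site recognition also fell. SF1 (ENSG00000168066.20, chr11:64532078-64546258, GRCh37), the branch point binding protein, stood at 419.6 and 378 FPKM in control normoxia, 172 and 189.5 in control hypoxia, 260.1 and 234 in eKD1 and 254 and 270.3 in eKD2. U2AF2, the subunit that binds the polypyrimidine tract, stood at 224 and 254 FPKM in control normoxia, 156 and 155 in control hypoxia, 172 and 158 in eKD1 and 161 and 155 in eKD2. Control hypoxia lay below normoxia without overlap in both. SF1 fell from 399 ± 29.1 to 181 ± 12.5 FPKM (SD, n = 2), or 45.3% (log2 change -1.14, SE 0.084, adjusted p = 0.00809), and U2AF2 to 65.1% (log2 change -0.61, SE 0.079, adjusted p = 0.0149). PRPF8, the central protein of the U5 particle, stood at 92.5 and 85.7 FPKM in control normoxia, 64.8 and 56.6 in control hypoxia, 89.6 and 99.1 in eKD1 and 61.3 and 67.8 in eKD2. SNRNP70, a U1 protein, stood at 371 and 360.0 FPKM in control normoxia, 280.0 and 288 in control hypoxia, 314 and 289 in eKD1 and 240.5 and 239.9 in eKD2. SF3A1, of the U2 particle, stood at 125 and 113 FPKM in control normoxia, 96.4 and 92.4 in control hypoxia, 95.4 and 96.5 in eKD1 and 106 and 105 in eKD2. The normoxia libraries were above the control hypoxia libraries in each. PRPF8 in eKD1 lay near the level of control normoxia, but its difference from control hypoxia was not called (adjusted p = 0.118, limma). PRPF8 fell to 68.1% (log2 change -0.55, SE 0.096, adjusted p = 0.0258), SNRNP70 to 77.7% (log2 change -0.36, SE 0.044, adjusted p = 0.0135) and SF3A1 to 79.4% (log2 change -0.33, SE 0.076, adjusted p = 0.0456). SF3B1, the branch point protein often mutated in leukemia, had a log2 change of -0.13 (adjusted p = 0.166). LUC7L3, a U1-associated factor, had means of 457 and 632 FPKM and did not pass the test (log2 change 0.47, SE 0.13, adjusted p = 0.0606).

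U2AF1 (ENSG00000160201.11, chr21:44513066-44527680, GRCh37), the subunit that reads the terminal AG of the intron, shares its locus with a row of another name. Its row stood at 26.6 and 28.0 FPKM in control normoxia, 11.5 and 10.2 in control hypoxia, 21.4 and 22.1 in eKD1 and 8.24 and 26.6 in eKD2. The control hypoxia libraries were lowest apart from the first eKD2 library, and the eKD2 duplicates were far apart. Its row fell to 39.8% (log2 change -1.26, SE 0.11, adjusted p = 0.00868). However, a second row named U2AF1L5 covers the same locus and held 168.7 to 304 FPKM, and U2AF1 was only 4.2% to 13.6% of their sum. The summed rows gave 301 and 332 FPKM in control normoxia, 232 and 213 in control hypoxia, 244 and 254 in eKD1 and 196 and 195 in eKD2. The sum was highest in normoxia and its duplicates were close. It fell to 70.3% in hypoxia (log2 change -0.51, SE 0.079, adjusted p = 0.0208), a smaller fall than that of the U2AF1 row alone. This sum was formed after the values had been seen.

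RBM39, a U2AF-related coactivator, RBM5, a regulator of exon choice in apoptosis genes, and RBM3, a protein induced by mild cold, make up the RNA-binding motif group. RBM3 stood at 474 and 512 FPKM in control normoxia, 411 and 384 in control hypoxia, 401 and 441 in eKD1 and 362 and 343 in eKD2. Every hypoxia library was below both normoxia libraries. RBM3 fell to 80.6% (log2 change -0.31, SE 0.065, adjusted p = 0.037). RBM39 and RBM5 did not pass the test in hypoxia, with log2 changes of -0.20 (adjusted p = 0.0851) and -0.07 (adjusted p = 0.443).

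With 2 libraries a group, several of these calls depended on the settings. Of the 28 members called in hypoxia, 10 were called under all 9 alternatives that kept every library and every gene row as listed: SRSF3, SRSF6, SRSF7, TRA2B, HNRNPA2B1, HNRNPD, HNRNPH1, HNRNPK, HNRNPM and SF1. CLK3 was called under 8 of the 9, SRSF2 under 6 and HNRNPA1 under 5. No member was called with any 1 library left out, a setting in which 0 of all tested genes were called. MALAT1, a nuclear RNA of the speckles, was at 137 and 213 FPKM in control normoxia and 244 and 291 in control hypoxia, and its part in these values was not tested.

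A wider list of other splicing genes also fell more often than it rose in hypoxia. Of 125 such genes, 122 could be tested, 57 fell and 8 rose, with a median log2 change of -0.27, where 16% of all tested genes fell and 16.2% rose with a median of 0.01. The largest falls were in SFPQ, a paraspeckle protein, PRPF38B, a pre-mRNA processing factor, and MBNL1, a muscleblind protein. SFPQ stood at 628 and 595 FPKM in control normoxia, 229 and 232 in control hypoxia, 356 and 330.0 in eKD1 and 299 and 275 in eKD2. MBNL1 stood at 92.6 and 92.7 FPKM in control normoxia, 37.5 and 34.6 in control hypoxia, 65.8 and 45.4 in eKD1 and 69.6 and 75.4 in eKD2. Control hypoxia was lowest in both, and eKD libraries lay between it and normoxia. Control hypoxia held 37.7% of the normoxia level of SFPQ (log2 change -1.40, SE 0.047, adjusted p = 0.00464), 36.9% of PRPF38B (log2 change -1.39, SE 0.075, adjusted p = 0.00665) and 38.9% of MBNL1 (log2 change -1.34, SE 0.070, adjusted p = 0.00665). The largest rises were in CIRBP, SNRPA1 and SNRPD2. CIRBP, which like RBM3 is induced by mild cold, stood at 310.0 and 345 FPKM in control normoxia, 540.0 and 504 in control hypoxia, 376 and 355 in eKD1 and 539 and 505 in eKD2. Control hypoxia and eKD2 were alike and above both normoxia and eKD1. CIRBP rose to 159% (log2 change 0.67, SE 0.075, adjusted p = 0.0118) while RBM3 fell. SNRPA1, of the U2 particle, rose to 157% (log2 change 0.64, SE 0.11, adjusted p = 0.0232) and SNRPD2, a Sm core protein, to 152% (log2 change 0.60, SE 0.062, adjusted p = 0.0106).

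The enhancer knockdowns were compared with control cells in hypoxia. Both comparisons use the same 2 control hypoxia libraries, as does the comparison with normoxia, so their values are set side by side and not counted as separate evidence. In eKD1 no member was called by limma (smallest adjusted p = 0.102), where 10 genes or 0.0651% of all tested genes were called (0.013% with a rise and 0.052% with a fall). At an unadjusted p under 0.05, 11 members were higher and 8 lower, against 11.7% and 10% of all tested genes. When all 8 libraries shared 1 estimate of the spread, 7 members were called higher and 3 lower, against 2.89% and 2.06% of all tested genes. The median log2 change of the members was 0.02, with 23 of the 42 above 0. Of the 122 other splicing genes tested, 0 were called, with 28 above and 20 below control at an unadjusted p under 0.05.

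The largest estimates above 0 in eKD1 belonged to U2AF1, SRSF3, PRPF8, HNRNPM, SRSF7 and SF1. SRSF3 was at 307 FPKM in eKD1 against 166 in control hypoxia (log2 change 0.88, SE 0.086, adjusted p = 0.102). PRPF8 (log2 change 0.63, SE 0.10, adjusted p = 0.118), HNRNPM (log2 change 0.58, SE 0.12, adjusted p = 0.131), SRSF7 (log2 change 0.53, SE 0.075, adjusted p = 0.114) and SF1 (log2 change 0.45, SE 0.085, adjusted p = 0.125) also had estimates above 0. None of these 5 genes passed the adjusted threshold. Their eKD1 libraries lay above both control hypoxia libraries, as did those of 27.6% of all tested genes, and the genes were picked here for their high estimates. U2AF1 had an estimate of 0.94, but its sum with U2AF1L5 had 0.16 (SE 0.064, adjusted p = 0.261). LUC7L3 had the lowest estimate, with 397 and 399 FPKM in eKD1 against 671 and 594 in control hypoxia (log2 change -0.67, SE 0.072, adjusted p = 0.102). All CLK kinases had estimates below 0 in eKD1 and none passed the test (CLK1 log2 change -0.25, SE 0.071, adjusted p = 0.184, CLK2 log2 change -0.05, SE 0.11, adjusted p = 0.803, CLK3 log2 change -0.14, SE 0.077, adjusted p = 0.376, CLK4 log2 change -0.48, SE 0.11, adjusted p = 0.149). MALAT1 was at 101 to 126 FPKM across the knockdown libraries, below both control hypoxia libraries. PTPRC was at 10.0 and 9.59 FPKM in eKD1 (log2 change 0.82, SE 0.13, adjusted p = 0.117) and at 14.3 and 13.5 in eKD2 (log2 change 1.28, SE 0.12, adjusted p = 0.0287). The part of either gene in these values was not tested.

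In eKD2, 8 members were called, 4 higher and 4 lower, against 9.61% of all tested genes (5.8% higher and 3.81% lower). Of the 8712 tested genes with a mean of at least 10 FPKM, 711 were called higher and 492 lower. The split moved with the scaling, to 8 higher and 2 lower with equal FPKM totals and to 4 higher and 8 lower with median-of-ratios rescaling. SRSF3 was higher at 143% of the control hypoxia level (log2 change 0.52, SE 0.044, adjusted p = 0.0282) and SF1 at 145% (log2 change 0.54, SE 0.072, adjusted p = 0.0372). SRPK2 was at 152% (log2 change 0.58, SE 0.075, adjusted p = 0.0362). RBM39 stood at 552 and 516 FPKM in control normoxia, 483 and 448 in control hypoxia, 411 and 410.1 in eKD1 and 629.8 and 607 in eKD2. The eKD2 libraries were above all others and the eKD1 libraries were below all others. Both eKD2 libraries were above both control hypoxia libraries in 35.8% of all tested genes. RBM39 rose to 133% of the control hypoxia level (log2 change 0.41, SE 0.054, adjusted p = 0.0369).

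The members that fell in eKD2 were SRSF2, HNRNPA1, SRSF1 and SNRNP70. SRSF2 (ENSG00000161547.16, chr17:74730197-74733415, GRCh37) went from 324 ± 22.4 FPKM (SD, n = 2) in control hypoxia to 204 ± 9.4 in eKD2, or 63.2% (log2 change -0.66, SE 0.072, adjusted p = 0.0312). HNRNPA1 fell to 73.5% (log2 change -0.44, SE 0.037, adjusted p = 0.028), SRSF1 to 78.2% (log2 change -0.35, SE 0.044, adjusted p = 0.0354) and SNRNP70 to 84.5% (log2 change -0.24, SE 0.040, adjusted p = 0.0492). In all 4 both eKD2 libraries were below every other library, and they were below both control hypoxia libraries in 26.4% of all tested genes. The CLK kinases did not pass the test in eKD2 (CLK1 log2 change 0.28, SE 0.081, adjusted p = 0.112, CLK2 log2 change -0.34, SE 0.077, adjusted p = 0.0769, CLK3 log2 change -0.55, SE 0.14, adjusted p = 0.0926, CLK4 log2 change 0.08, SE 0.10, adjusted p = 0.631). CLK3 was called lower when all 8 libraries shared 1 estimate of the spread (adjusted p = 0.0367) or when only protein coding genes were tested (adjusted p = 0.0461). No eKD2 call held with the replicate number as a block or without a trend in the variance, settings that called 0 and 28 genes among all tested.

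**Figure D4:**
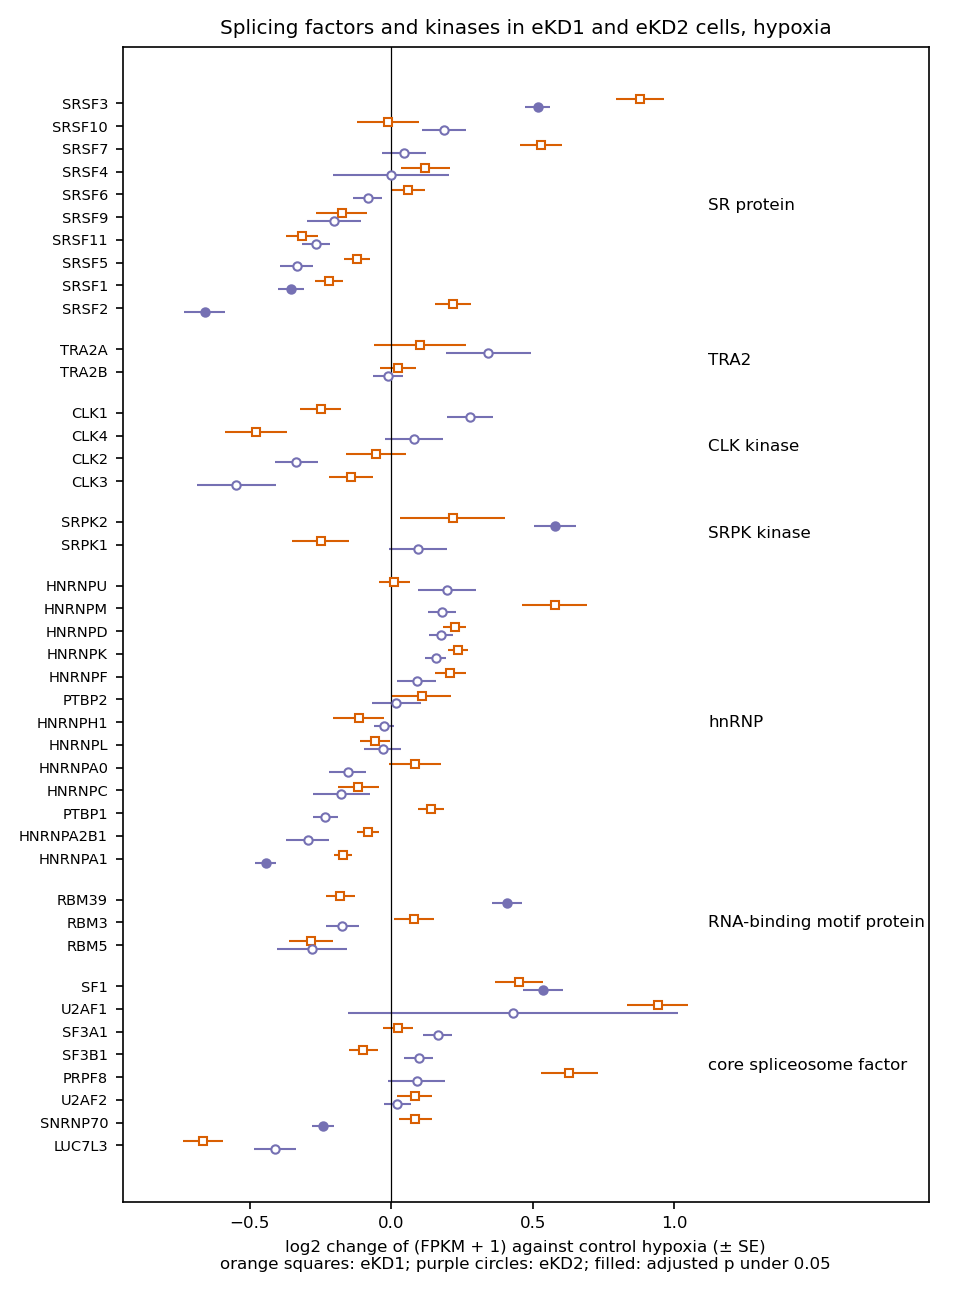
Log2 change of (FPKM + 1) against control hypoxia (x axis, points with SE, n = 2 libraries a group) for the 42 members in eKD1 (orange squares) and eKD2 (purple circles), by class. Filled points passed the test at an adjusted p under 0.05. Only 8 eKD2 points are filled, and SRSF2 has its eKD1 point at 0.22 and its eKD2 point at -0.66. Both series share the control hypoxia libraries.

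Of the 122 other splicing genes tested, 14 rose and 12 fell in eKD2, where 5.8% of all tested genes rose and 3.81% fell. The largest rises were in MBNL2 (227% of the control hypoxia level, log2 change 1.06, SE 0.11, adjusted p = 0.0305), MBNL1 (201%, log2 change 0.99, SE 0.081, adjusted p = 0.0273) and PLRG1, of the Prp19-associated proteins (188%, log2 change 0.91, SE 0.10, adjusted p = 0.0332). MBNL2 stood at 5.78 and 5.61 FPKM in control normoxia, 6.12 and 5.97 in control hypoxia, 6.98 and 4.43 in eKD1 and 14.2 and 13.3 in eKD2. Both eKD2 libraries of MBNL2 were well above all the others. The largest falls were in SF3B5, a small subunit of the U2 particle (61.2%, log2 change -0.70, SE 0.052, adjusted p = 0.0273), PNN (61.7%, log2 change -0.70, SE 0.069, adjusted p = 0.0305) and PNISR, a protein with an arginine-serine domain (63.5%, log2 change -0.65, SE 0.060, adjusted p = 0.0287). CIRBP was at the control hypoxia level in eKD2 (log2 change 0.00, 95% interval -0.17 to 0.17). In eKD1 it had log2 change -0.51, SE 0.059, adjusted p = 0.102 and was not called.

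The 2 guides were compared directly, which does not use the control libraries. SRSF2 was the only member called, among 0.403% of all tested genes (0.286% higher and 0.117% lower). It stood at 378 and 375 FPKM in eKD1 and 198 and 211 in eKD2. The eKD1 duplicates lay near the normoxia level and the eKD2 duplicates lay lowest of all libraries. eKD2 held 54.3% of the eKD1 level (log2 change -0.88, SE 0.053, adjusted p = 0.0461, 95% interval -1.03 to -0.73). At an unadjusted p under 0.05, 6 members were higher in eKD2 and 11 lower, against 13.8% and 9.73% of all tested genes. RBM39 came next (151% of the eKD1 level, log2 change 0.59, SE 0.042, adjusted p = 0.0529), followed by PTBP1 (77.1%, log2 change -0.37, SE 0.037, adjusted p = 0.0705), and neither passed the adjusted threshold. SRSF3 (log2 change -0.36, SE 0.085, adjusted p = 0.133), SRSF7 (log2 change -0.48, SE 0.079, adjusted p = 0.0936), HNRNPM (log2 change -0.40, SE 0.12, adjusted p = 0.171) and PRPF8 (log2 change -0.54, SE 0.091, adjusted p = 0.0973) had lower estimates in eKD2 than in eKD1. SF1 had an estimate above 0 (log2 change 0.09, SE 0.076, adjusted p = 0.532). All were picked above for high estimates in eKD1, so values below 0 here are partly set by that choice. The CLK kinases did not pass the test between guides (CLK1 log2 change 0.53, SE 0.073, adjusted p = 0.0843, CLK2 log2 change -0.28, SE 0.12, adjusted p = 0.263, CLK3 log2 change -0.41, SE 0.13, adjusted p = 0.194, CLK4 log2 change 0.56, SE 0.12, adjusted p = 0.119). CLK1 was called higher in eKD2 with the shared spread (adjusted p = 0.0386) and among protein coding genes alone (adjusted p = 0.0449). Of the 122 other splicing genes tested, 0 were called between the guides, with 16 above and 22 below eKD1 at an unadjusted p under 0.05.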

How the data were processed

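RNA was measured in 8 libraries of SK-N-MC cells, grouped and numbered by their titles. As stated in the study, poly-A selected libraries were sequenced single-end, aligned by the authors to GRCh37 with STAR, and quantified with cufflinks and cuffnorm, while their own tests ran DESeq2 on counts not used here. The deposited values are FPKM for 60332 genes, with the scaling between libraries not given. TruSeq libraries of this kind do not mark strand, so overlapping genes on opposite strands share reads.

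A gene was tested if 2 or more libraries reached 1 FPKM (15372 genes). Values were analysed as log2(FPKM + 1) with limma 3.58.1 in R 4.3.3, each comparison on its 2 + 2 libraries, with a variance trend, two-sided, and Benjamini-Hochberg adjustment over all tested genes, called under 0.05. Log2 changes are on this scale and understate low genes. A percentage of a group's level is a ratio of mean FPKM, with no pseudocount. limma replaced the count test because the values are not counts. The code was tested on simulated data.

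The members and the list of 125 other splicing genes were chosen with earlier results of these data known. Every member called in at least 1 comparison, and every CLK and SRPK kinase, is given by library. Of the other splicing genes, the 3 largest called rises and falls per comparison with a mean of at least 5 FPKM and groups apart are named, with CIRBP always. Same-numbered libraries did not deviate together (r from -0.057 to 0.126 over 6 pairs of groups), so the numbers were not used to pair them. Counts of lists are read against the share of all tested genes, with no set test. Alternatives were another pseudocount, filter, scaling, shared spread, replicate block, no trend, protein coding genes alone, and each library left out. After seeing the data, U2AF1 was also summed with U2AF1L5. Promoter sequences are RefSeq (GRCh38.p14), and overlaps use GENCODE on GRCh37.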

Additional observations from a re-analysis of the deposited data

Results flagged for a closer look

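SRSF2 differed between the 2 guides in hypoxia by a direct test, with a log2 change of -0.88 (eKD2 minus eKD1, SE 0.053, adjusted p = 0.0461, limma), from 378 and 375 FPKM in eKD1 to 198 and 211 in eKD2. It was called under 6 of the 9 alternatives that kept every library and every gene row as listed.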

How the results depend on the processing

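Leaving out a library called 0 genes among all tested in every comparison, so each count of members fell to 0. The fit then assumes that the lone library varies like the others. The median member change without 1 library ran from -0.40 to -0.30 for hypoxia, -0.0029 to 0.049 for eKD1 and -0.12 to -0.042 for eKD2 against eKD1. For hypoxia (2 higher, 26 lower), no filter gave 0 and 14, the replicate block 15 lower, no variance trend 1 and 17, equal FPKM totals 1 higher with a median of -0.56, and protein coding genes alone 4 higher. For eKD1 (0 and 0), the shared fit gave 7 and 3, protein coding genes alone 2 and 1, and equal totals a median of 0.094. For eKD2 (4 and 4), no filter gave 2 and 0, a mean of at least 5 FPKM 8 lower, median-of-ratios rescaling 8 lower with a median of -0.056, equal totals 8 and 2 with a median of 0.11, the shared fit 9 lower, protein coding genes alone 10 lower, and the replicate block and no variance trend 0 and 0. For eKD2 against eKD1 (0 and 1), the lower count was 0 with no filter, the replicate block or no trend, 7 with the shared fit and 4 with protein coding genes alone. The higher count was 1 with a mean of at least 5 FPKM and 2 with the shared fit or protein coding genes alone, and the median was -0.12 with median-of-ratios rescaling and -0.035 with equal totals. The sign changed for HNRNPA1 in hypoxia with equal totals (-0.011), for CLK1 in hypoxia without control normoxia replicate 2 (0.11) or control hypoxia replicate 2 (0.03, against -0.18 without control normoxia replicate 1), and for CLK2 in eKD1 with equal totals (0.015) or without eKD1 replicate 1 (0.065, against -0.17 without replicate 2). The block is given here alone because the replicate numbers did not pair the libraries. The cause of these shifts was not tested. Read depth, which is not given, limits what the low genes can show.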
